A study of Mus musculus with 6 samples.

Results

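The Ifi200 family genes described here are Ifi205, Ifi207, Ifi213, Ifi214, Ifi203, Ifi209 and Aim2, which encode sensors of nucleic acid. These 7 genes were found by symbol among 19938 mouse genes that have a probe set with exactly 1 symbol in the array's annotation, and each had 1 such probe set, so the choice of a probe set by its mean over all arrays did not come into play. The members were chosen by symbol, as genes of this family, and the list was put together with earlier results of the same comparison known, so the differences between groups, and the calls of the fit, are given as a description of these arrays and not as independent evidence. RNA from mouse bone marrow, flushed from the shafts of femurs and tibiae and not treated further, was measured on 6 Affymetrix arrays, 3 from wild type and 3 from diabetic males aged 10 weeks. The animals are of a BKS background, and the genotype labels of both groups hold the db allele of the leptin receptor gene Lepr, so the labels do not settle which copies of it the wild type animals carried. The db defect is carried in every cell of the body, so no cell type is targeted. The labels do not tell whether RNA of 1 animal or of pooled animals went on an array. The p-values therefore cover only the spread between these samples, which may be technical.

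Values are log2 signals from RMA, the robust averaging of the probes in a probe set, and 1 unit on this scale is a doubling. A gene was tested when its mean over the 6 arrays reached a log2 signal of 7.50, the 40th percentile of the annotated probe sets, which left 12029 genes. Marrow genes were well measured: all 8 neutrophil and all 7 measured erythroid markers passed this level, against 2 of 4 skeletal muscle and 1 of 4 epithelial markers. The marrow was not sorted, and fewer cells of a type cannot be told apart from less RNA per cell.

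Proteins of the Ifi200 family, also called the PYHIN family, typically join a pyrin domain, which binds other pyrin domains, to HIN domains, which bind DNA. AIM2 senses double-stranded DNA in the cytosol, recruits the adaptor ASC and starts an inflammasome, the complex in which caspase-1 matures interleukin 1 beta and interleukin 18. Many of the other members are switched on by type I interferon, act in the nucleus or cytosol, and have been linked to interferon and cytokine gene expression in macrophages. The genes lie side by side on mouse chromosome 1. In the RefSeq gene order of GRCm38.p6, the stretch from Aim2 to Ifi205 held 13 protein-coding genes, and all 13 belong to the family.

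The promoters are shown first because 6 of the 7 members, all but Aim2, hold a short element there. RefSeq promoter windows (GRCm38.p6, 250 bases before to 50 bases after the start site) were on hand for all 7 members, with 2 windows for Ifi203. The following 60-base stretches run 5′ to 3′ on the gene's strand, and the capitals mark matches to AAATNGAAA, a pattern chosen after these windows had been read.
Ifi205, chr1:174031855-174031914, minus strand: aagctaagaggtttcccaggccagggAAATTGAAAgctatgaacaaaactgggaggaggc
Ifi207, chr1:173741816-173741875, minus strand: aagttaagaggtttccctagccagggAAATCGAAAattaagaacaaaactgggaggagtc
Ifi213, chr1:173599311-173599370, minus strand: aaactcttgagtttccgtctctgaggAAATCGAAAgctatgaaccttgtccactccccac
Ifi214, chr1:173536002-173536061, minus strand: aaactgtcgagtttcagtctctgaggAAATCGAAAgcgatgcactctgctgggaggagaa
Ifi203, chr1:173942493-173942552, minus strand: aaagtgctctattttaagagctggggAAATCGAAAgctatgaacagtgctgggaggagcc
Ifi209, chr1:173630755-173630814, plus strand: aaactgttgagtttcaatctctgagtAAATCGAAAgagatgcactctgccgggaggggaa

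On both strands, GAAA followed by NN and GAAA, the core of the interferon-stimulated response element (ISRE), was found in the windows of 5 of the 7 members, Ifi205, Ifi207, Ifi213, Ifi214 and Ifi203. It was found in 3.44% of all 32851 windows and in 3.99% of the 27025 genes with a window. The windows of the family include near copies, described below, so the 5 may not be separate occurrences. In these 5 genes the ISRE core overlapped the capitals above. The Ifi205 window held a further match on the opposite strand past the start site. The Ifi209 window had no ISRE core match, but it held the shorter AAATNGAAA, as did the 5 others. That pattern was chosen from these windows, so nothing is read from its share of 1.87% of all windows. Counted from the start site, the first capital base lay between position -133 in Ifi205 and position -34 in Ifi203. The other window of Ifi203 held no match.

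The Aim2 window, printed whole because it stood apart from those above, had no match to the ISRE core or to AAATNGAAA. The capitals mark its 1 match to GAGGAAGT, the core bound by the myeloid factor PU.1, which was in 3.20% of all windows and in no window of the other members.
Aim2, chr1:173420354-173420653, plus strand: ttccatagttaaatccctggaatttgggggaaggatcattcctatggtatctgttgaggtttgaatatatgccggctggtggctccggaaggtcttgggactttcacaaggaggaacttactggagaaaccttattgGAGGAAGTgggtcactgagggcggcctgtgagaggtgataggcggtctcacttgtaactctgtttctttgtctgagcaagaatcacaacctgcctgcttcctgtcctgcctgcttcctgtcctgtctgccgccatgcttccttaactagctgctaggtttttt
A match is a run of letters and not a measured binding site, and a missing match says only that the letters are not in that window. The RefSeq span of Aim2 begins 71057 bases before the start site of its window, so an earlier start is not covered. The pattern TTCNNNGAA, the core of the gamma-activated sequence and found in 8.30% of all windows, was in no window of the 7 members.

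**Figure D1:**
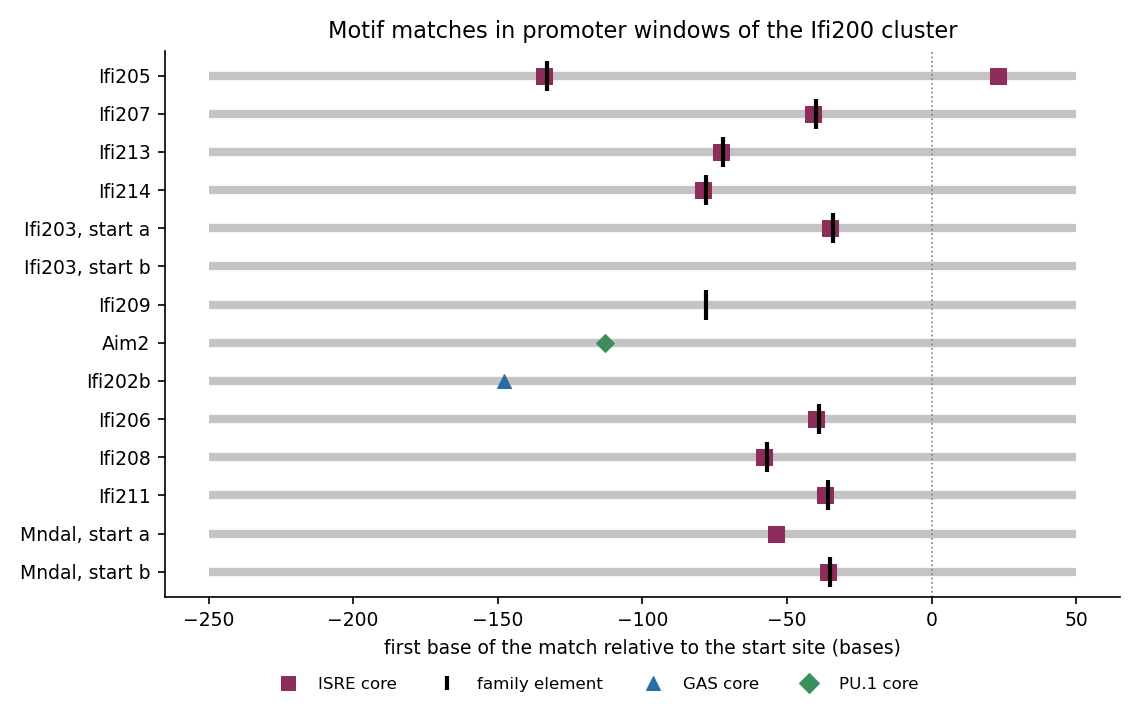
First base of each motif match (horizontal axis, bases relative to the start site) in the promoter windows of the Ifi200 cluster, 1 grey bar per window. The ISRE core and AAATNGAAA (family element) coincide in 5 members, with the first base of the ISRE core between -134 and -35, while Ifi209 carries the shorter pattern alone and Aim2 carries neither.

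Some windows were near copies of each other. Over the aligned stretch, the windows of Ifi214 and Ifi209 were identical at 95.7% of 300 columns. The Ifi213 window matched those of 2 neighbours outside the member list, at 98.9% of 285 columns for Ifi208 and 98.5% of 267 columns for Ifi206. Ifi207 and Ifi205 were identical at 86.6% of 209 columns. With such close relatives, the RNA of a paralog may add to the signal of a member's probe set. The probe sequences were not analysed here.

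The question of the comparison was how marrow RNA differs between diabetic and wild type animals. All 7 members had a lower mean in diabetic marrow, and the differences ranged from -1.58 to -0.10 on the log2 scale. Ifi205, Ifi207 and Ifi213 fell past an adjusted p of 0.05. They are 3 of 7 members, beside 0.333% of all genes tested that passed in that direction, 40 of 12029, and 0.432% that passed in either. The median difference of the 7 was -1.17, against 0.0046 over all genes tested. In all, 15 of 12029 genes had a difference at or below -1.17. Ifi205, Ifi207, Ifi213 and Ifi214 are among these 15, since the cut is the members' own median. The rule behind the list had this comparison in view, so nothing is read from these shares.

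Ifi205 (probe set 10360406), known from myeloid cells and interferon-treated macrophages, had log2 signals of 8.72, 8.76 and 8.73 in wild type marrow and 7.28, 7.03 and 7.32 in diabetic marrow. The wild type arrays lay close together and well above every diabetic array. The means were 8.74 ± 0.02 and 7.21 ± 0.15 (SD, n = 3 each), a 2.88-fold lower signal. Its log2 change was -1.53 ± 0.08 (SE, n = 3 per group), and limma's Benjamini-Hochberg adjusted p was 0.00124. It passed in each of the 14 alternatives that tested it.

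Ifi207 (probe set 10360377), a long family protein found in the nucleus, stood at 11.25, 11.17 and 11.14 in wild type and at 10.05, 9.73 and 10.18 in diabetic marrow. The groups did not overlap, and diabetic replicate 2 was the lowest array, as it was for Ifi205. The log2 change was -1.20 ± 0.11 (SE, n = 3 per group), or 2.30-fold lower, and limma's Benjamini-Hochberg adjusted p was 0.0116. The call was lost in 3 alternatives, where the adjusted p of Ifi207 in limma was 0.0653 without diabetic replicate 1, 0.0604 with the replicate number as a block and 0.0962 over all probe sets.

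Ifi213 (probe set 10360373), a PYHIN gene next to Ifi214, had the largest difference of the family. Its wild type values were 9.02, 9.41 and 8.75, and its diabetic values were 7.28, 7.36 and 7.79. The lowest wild type array stayed above the highest diabetic array. The log2 change was -1.58 ± 0.18 (SE, n = 3 per group), or 2.99-fold lower, and limma's Benjamini-Hochberg adjusted p was 0.0184. This call was lost in 5 alternatives. The adjusted p of Ifi213 in limma was 0.0597 without wild type replicate 2, 0.134 without diabetic replicate 1 and 0.121 without diabetic replicate 2. It was 0.100 with the replicate number as a block and 0.125 over all probe sets.

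Ifi214 (probe set 10360370) was measured at 8.49, 8.73 and 7.98 in wild type and at 7.47, 7.01 and 7.20 in diabetic marrow. The groups were apart, but wild type replicate 3 was well below the other wild type arrays. The log2 change was -1.17 ± 0.19 (SE, n = 3 per group), and its Benjamini-Hochberg adjusted p of 0.0638 by limma missed the threshold. Ifi205, Ifi213 and Ifi214 had diabetic means under the level filter, so they were tested only because their wild type signal was higher.

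Ifi203 (probe set 10360391), an interferon-inducible nuclear family member, gave 11.64, 11.60 and 11.00 in wild type and 10.74, 10.77 and 10.79 in diabetic marrow. The diabetic arrays were nearly equal, and wild type replicate 3 lay closer to them than to the other wild type arrays. The log2 change was -0.64 ± 0.16 (SE, n = 3 per group), and limma's Benjamini-Hochberg adjusted p was 0.277.

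Ifi209 (probe set 10351873), which the RefSeq table also lists as Pyhin1, gave 11.10, 10.94 and 10.22 in wild type and 10.24, 10.21 and 9.90 in diabetic marrow. Here the groups overlapped, because wild type replicate 3 was just under diabetic replicate 1. The log2 change was -0.64 ± 0.21 (SE, n = 3 per group), and the limma p after Benjamini-Hochberg adjustment was 0.563. Groups without overlap and with the diabetic arrays lower were thus seen for 5 of the 7 members, beside 5.39% of all genes tested, or 12.4% with either group lower.

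Aim2 (probe set 10351867), the inflammasome sensor, was at 9.64, 9.55 and 9.45 in wild type and at 9.45, 9.61 and 9.28 in diabetic marrow. The groups overlapped widely. The log2 change was -0.10 ± 0.10 (SE, n = 3 per group), and limma's Benjamini-Hochberg adjusted p was 0.948. Its 95% interval ran from -0.32 to 0.13, a range that does not reach the point estimate of any other member. The range does overlap the intervals of Ifi203, with an upper end of -0.28, and Ifi209, with an upper end of -0.14. The difference between Aim2 and the other members was not tested.

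**Figure D2:**
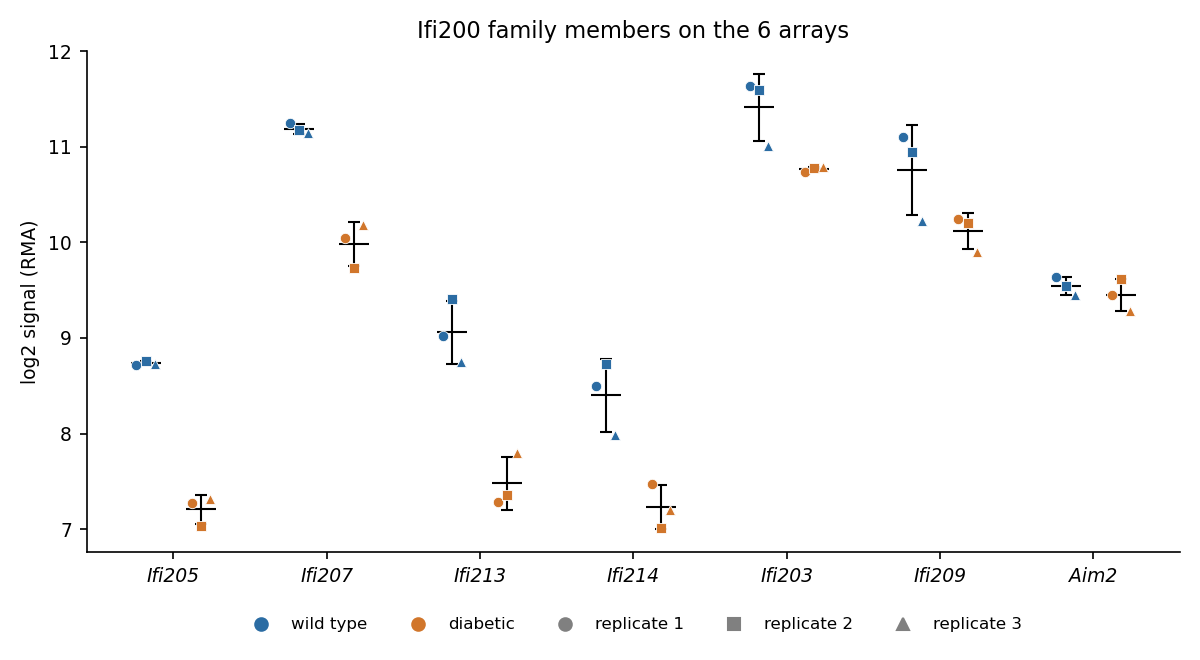
Log2 signal (RMA, vertical axis) of the 7 members on each array, blue for wild type and orange for diabetic, with the marker shape giving the replicate number and black bars the mean ± SD of 3 arrays. Ifi205 drops from 8.74 to 7.21 with tight groups, wild type replicate 3 sits low for Ifi214, Ifi203 and Ifi209, and the groups of Aim2 overlap.

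The members fell into different patterns within the wild type group. Wild type replicate 3 deviated from its group mean by -0.53 for Ifi209, -0.42 for Ifi214, -0.41 for Ifi203 and -0.31 for Ifi213. For Ifi205, Ifi207 and Aim2 the same array deviated by only -0.01, -0.04 and -0.10. Without wild type replicate 3, the number of members past the threshold went from 3 to 6, all but Aim2, while the count over all genes tested went from 52 to 70. The log2 changes were then -1.38 for Ifi214, -0.85 for Ifi203 and -0.91 for Ifi209, with adjusted p values of 0.0113, 0.00426 and 0.0200 in limma with Benjamini-Hochberg adjustment. Without diabetic replicate 1, Ifi205 was the 1 member that passed, among 5 genes in all.

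**Figure D3:**
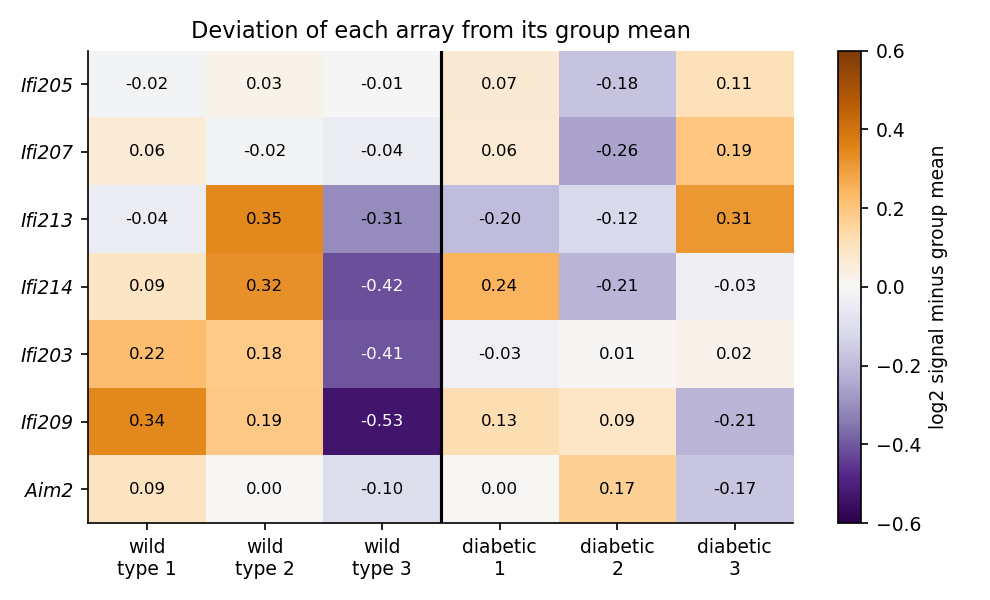
Deviation of each array's log2 signal from the mean of its group (colour and printed value) for the 7 members, wild type arrays left of the black line and diabetic arrays right of it. Wild type replicate 3 is low for Ifi213, Ifi214, Ifi203 and Ifi209 and close to its group for Ifi205 and Ifi207.

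Marker genes of several cell types stood apart on that array, and B cell markers were low there. Their mean log2 signal over 7 measured markers was 11.13, 10.91 and 10.06 in wild type and 10.41, 10.52 and 10.16 in diabetic marrow, so wild type replicate 3 was the lowest of all 6. Of the 6 tested B cell markers, 6 were lower in diabetic marrow and 0 passed the adjusted threshold. Erythroid markers were highest on wild type replicate 3, with means over 7 genes of 12.16, 12.32 and 12.68 in wild type and 12.33, 12.62 and 12.39 in diabetic marrow. Megakaryocyte markers were highest there too, with means over 4 genes of 10.24, 10.61 and 11.13 against 10.67, 10.75 and 10.39. Plasma cell markers were lower in diabetic marrow for 5 of 5 tested genes, with 0 calls. Their means over 6 genes were 8.91, 9.28 and 9.21 in wild type and 8.84, 8.77 and 8.91 in diabetic marrow, so the groups nearly touched. Macrophage markers separated the groups by a narrow margin. Their mean over 8 genes was 9.67, 9.85 and 9.94 in wild type and 9.47, 9.62 and 9.62 in diabetic marrow. Of these 8 genes 7 were lower, 1 was higher and 0 passed. Their changes ran from -0.62 ± 0.12 for C1qb, a complement chain of resident macrophages, to 0.27. Dendritic cell markers ran from 8.86 to 8.94 in wild type and from 8.72 to 8.78 in diabetic marrow over 8 genes. These groups did not overlap either. In that list 4 of 7 tested genes were lower and 0 passed. Monocyte markers ranged from 10.58 to 10.78 and from 10.53 to 10.76, and neutrophil markers from 13.16 to 13.29 and from 13.18 to 13.36, with 0 calls in either list. Of the macrophage and dendritic markers, Siglec1 and Bst2 are themselves switched on by interferon. The part of these cell types in the differences of the Ifi200 genes was not tested.

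Other genes of the cluster were read next, since the member list does not cover it. Ifi206, Ifi208 and Ifi202b each have a probe set of their own, and all lay below the level filter, so they were read from a fit of all 19938 genes with no filter. In that fit 0 of these 3 genes passed, and 0.216% of all genes passed as lower. Ifi206 was at 7.86, 8.37 and 7.43 in wild type and 7.09, 6.92 and 7.04 in diabetic marrow, a log2 change of -0.87 ± 0.20 (SE, n = 3 per group). Its limma p after Benjamini-Hochberg adjustment was 0.294. Ifi208 was at 7.65, 8.10 and 7.45 against 7.24, 6.95 and 7.43, a change of -0.53 ± 0.17 (SE), and limma gave an adjusted p of 0.697. Both gave groups that did not overlap, Ifi208 only by 7.45 against 7.43, with wild type replicate 3 again the lowest wild type array. Among genes past the level filter, 5.39% were apart with the diabetic arrays lower. That share was not counted for the fit with no filter. Ifi202b, whose product has HIN domains but no pyrin domain and binds DNA without starting an inflammasome, was dim on all 6 arrays, with log2 signals from 4.35 to 4.60, and changed by 0.02 ± 0.08. Its promoter window held no ISRE core match, while those of Ifi206 and Ifi208 held 1 each. Probe set 10360382, which the annotation gives to 2 genes of the family at once, was at 10.21, 10.15 and 10.05 in wild type and 9.26, 9.17 and 9.16 in diabetic marrow. Its log2 change was -0.95 ± 0.07, with an adjusted p of 0.0838 over all 35556 probe sets in limma with Benjamini-Hochberg adjustment.

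Outside the cluster, the 5 nearest measured genes on each side were compared in the same way. They were Olfr1404, Fcer1a, Olfr418, Ackr1 and Cadm3 before Aim2, and Olfr433, Olfr432, Olfr430, Olfr429 and Olfr427 after Ifi205. Their log2 changes ranged from -0.38 to 0.15, and 0 of the 10 passed the adjusted threshold in limma, though 8 of them lay below the level filter. Fcer1a, the alpha chain of the high-affinity IgE receptor of mast cells and basophils, had the lowest value, -0.38 ± 0.23. Ackr1, a chemokine-binding receptor of red cell precursors and venules, was at -0.02 ± 0.24. Of the 10 neighbours, Olfr427, an olfactory receptor gene, had the 1 interval that excluded 0, from -0.36 to -0.05 (limma, adjusted p = 0.697). In the order of the chromosome, the low values ran from Ifi206 to Ifi205, with Aim2 at the edge near 0. Ifi202b, between them, was near 0 too, but it was dim on all 6 arrays and below the level filter. The 5 genes after Ifi205 all lay below the level filter, so that side had no tested neighbour among them.

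**Figure D4:**
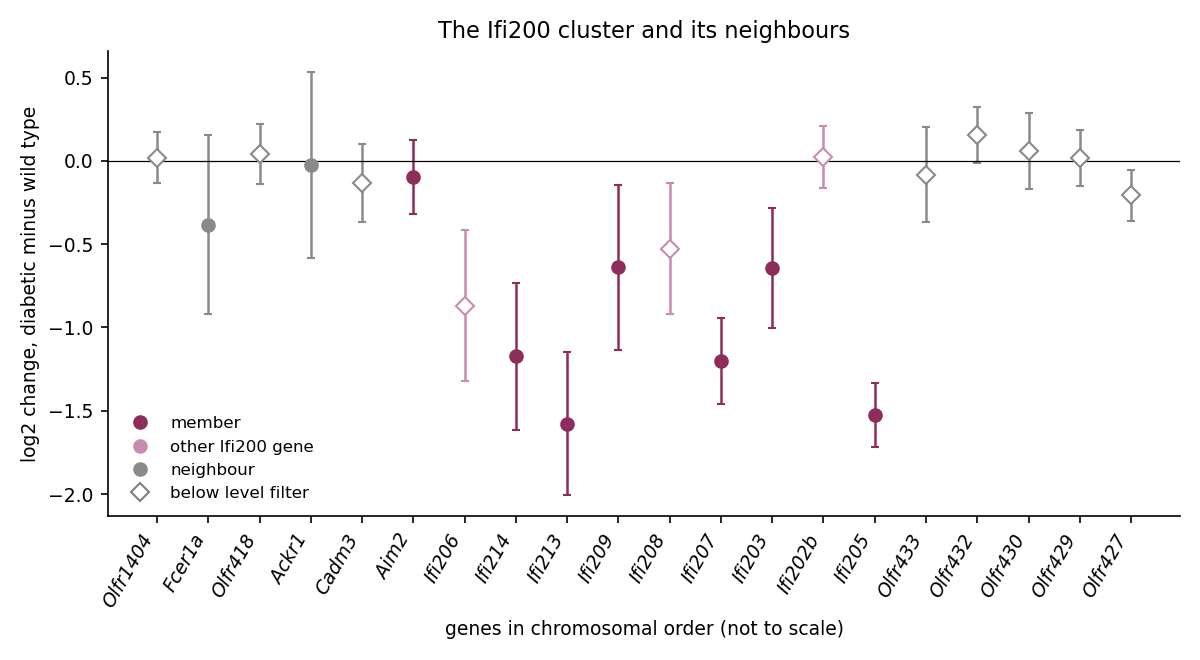
Log2 change, diabetic minus wild type (vertical axis, point and 95% interval of the limma fit), for the Ifi200 genes and 5 measured neighbours on each side in chromosomal order, with open diamonds for genes below the level filter. Aim2 and Ifi202b lie near 0, the other family genes between -1.58 and -0.53, and the neighbours between -0.38 and 0.15.

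Genes of the inflammasome that AIM2 feeds were read with sensors of other inflammasomes, such as Nlrp3 and Nlrc4, in 1 list of 19 genes. All 19 were measured and 15 tested. The counts and the median cover the whole list and not the AIM2 inflammasome alone. Of these 15, 7 were lower and 8 higher, and 0 passed the adjusted threshold in limma, with a median log2 change of 0.0049. Pycard, which encodes ASC, was at -0.12 ± 0.07, Casp1 at -0.16 ± 0.08, and Casp4, the sensor caspase of the noncanonical pathway, at -0.26 ± 0.09. Gsdmd, the pore-forming executioner, was at 0.04 ± 0.06. Txnip, which binds the related sensor NLRP3, was at 0.25 ± 0.11, and Ninj1, which ruptures the membrane of dying cells, at 0.17 ± 0.06. Il1b, the gene of a cytokine released at the end of the pathway, had log2 signals of 9.79, 10.34 and 10.19 in wild type and 11.14, 10.49 and 10.42 in diabetic marrow. The groups did not overlap and all diabetic arrays were higher, but the change of 0.58 ± 0.21 (SE, n = 3 per group) had a Benjamini-Hochberg adjusted p of 0.602 by limma. Il18, the gene of the other cytokine, lay below the level filter and had the lowest change of the list in the fit with no filter. Its signals were 7.67, 7.63 and 7.42 in wild type and 7.24, 7.16 and 7.18 in diabetic marrow. The groups were apart with the diabetic arrays lower, and the change was -0.38 ± 0.08, with an interval from -0.56 to -0.19 (limma, adjusted p = 0.235).

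The wider DNA-sensing pathway had 29 tested genes of 31 listed and 30 measured, with 2 past the threshold, both lower, and a median of 0.01. Zbp1, a sensor of Z-form nucleic acid that is itself induced by interferon, fell from 9.23, 9.63 and 9.44 to 8.54, 8.42 and 8.43, a change of -0.97 ± 0.10 (limma, adjusted p = 0.0142). Adar, an RNA-editing enzyme with an interferon-driven form, changed by -0.49 ± 0.07 (limma, adjusted p = 0.0389). Sting1, Tbk1 and Irf3 of the signalling core were near 0. Sting1, the adaptor downstream of the DNA sensor cGAS, was at 0.02 ± 0.07, Tbk1, its kinase, at 0.03 ± 0.06, and Irf3, the factor this kinase activates, at -0.05 ± 0.08. Cgas itself lay below the level filter, at -0.04 ± 0.07. Ikbke had the highest change of the list, 0.21 ± 0.09, with an interval from 0.0022 to 0.41 (limma, adjusted p = 0.691). Of the 29 tested genes, 12 were lower and 17 higher. The exonuclease Trex1, which clears cytosolic DNA, was at -0.29 ± 0.07 (limma, adjusted p = 0.233). The count of 2 became 1 without wild type replicate 2 or 3 and 0 without diabetic replicate 1, 2 or 3.

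Of 20 tested genes that carry or restrain the interferon signal, 4 passed, all lower, and the median was 0.02. Usp18, a brake on the receptor, changed by -1.42 ± 0.16, and Irf7, which amplifies interferon production, by -1.30 ± 0.17. Irf9 and Stat2 encode parts of the ISGF3 complex, which binds the ISRE, and changed by -0.78 ± 0.09 and -0.49 ± 0.07. Adjusted by Benjamini-Hochberg, the limma p values of these 4 genes ran from 0.0163 for Usp18 to 0.0389 for Stat2. The receptor chains Ifnar1 and Ifnar2, at -0.01 ± 0.06 and 0.02 ± 0.06, and the kinases Jak1 and Tyk2, at 0.02 ± 0.07 and -0.03 ± 0.08, did not pass. Ifngr1, at 0.21 ± 0.07, and Jak2, at 0.17 ± 0.06, were higher, with intervals that excluded 0, but did not pass (limma, adjusted p = 0.579 and 0.563). Of the 20 genes, 8 were lower and 12 higher. Other brakes did not pass either, with Socs1 at -0.27 ± 0.07, Socs3 at 0.05 ± 0.10, Ptpn2 at 0.06 ± 0.06 and Ptpn6 at 0.06 ± 0.10. The same held for the factors Irf1, at -0.27 ± 0.11, Irf2, at 0.13 ± 0.09, Irf5, at 0.04 ± 0.08, and Irf8, at 0.0029 ± 0.10. The count of 4 became 0 when wild type replicate 2 or any 1 diabetic array was left out.

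The Ifi200 members were set beside 3 other families of interferon-induced paralogs. The oligoadenylate synthetases, which activate an RNA-degrading nuclease, had 7 tested genes with a median of -0.99 and 5 past the threshold. Oas2, at -1.49 ± 0.16, and Oasl2, at -1.35 ± 0.16, had the largest changes there. The Schlafen genes, which restrain T cells and viral protein synthesis, had 9 tested genes, a median of -0.29 and 2 past the threshold, Slfn5 at -1.25 ± 0.12 and Slfn8 at -0.82 ± 0.11. The guanylate-binding and immunity-related GTPases, which attack the vacuoles of intracellular pathogens, had 5 tested genes, a median of -0.49 and 2 past the threshold, Irgm1 at -0.90 ± 0.08 and Gbp7 at -0.67 ± 0.08. Iigp1, below the level filter, was at -0.84 ± 0.12 in the fit with no filter (limma, adjusted p = 0.0327). In that fit 3 of the 10 measured GTPases passed as lower, beside 0.216% of all genes. The oligoadenylate synthetase and Schlafen counts stayed at 5 and 2 there. In each of the 4 families some tested genes passed and others did not, and whether the families differ was not tested. The counts depended on single arrays. Without diabetic replicate 1, the fit called 2 oligoadenylate synthetases, 0 Schlafen genes, 1 GTPase and 1 Ifi200 member, among 5 genes in all. Without diabetic replicate 2 it called 0 in each of the 3 families and 2 Ifi200 members, among 3 genes. Without diabetic replicate 3 it called 1 in each family and 3 members, among 12 genes. Without wild type replicate 2 it called 2 oligoadenylate synthetases, 2 Schlafen genes, 1 GTPase and 2 members, among 13 genes. Without wild type replicate 1 the counts were 6, 2, 3 and 3 in the same order, among 58 genes. Without wild type replicate 3 they were 4, 2, 2 and 6, among 70 genes.

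**Figure D5:**
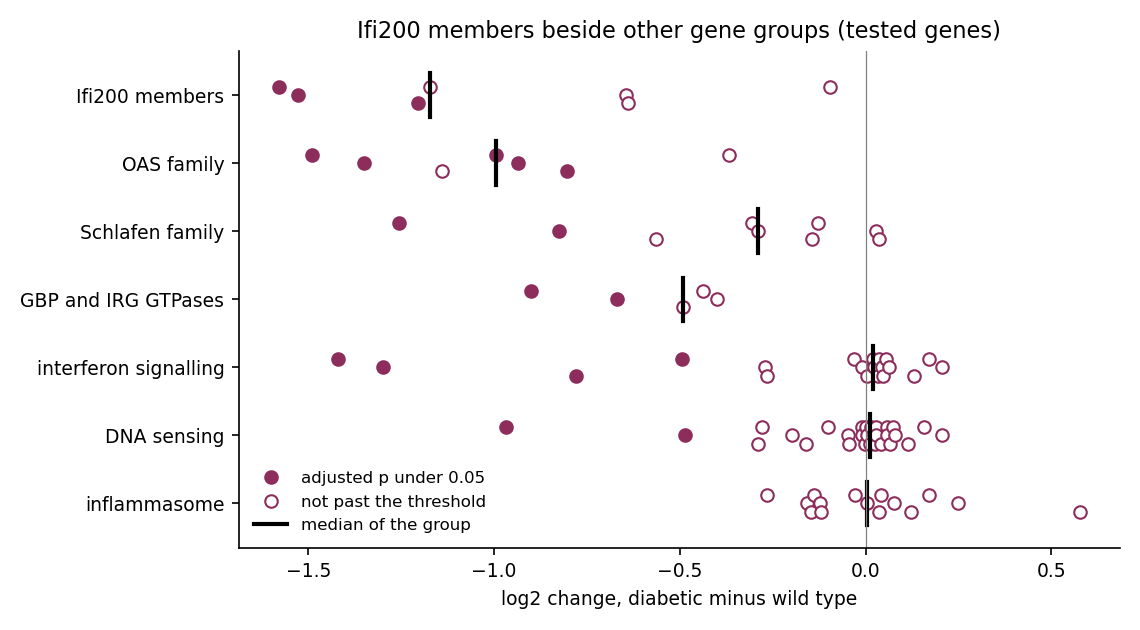
Log2 change, diabetic minus wild type (horizontal axis), of each tested gene in 7 groups, filled points past an adjusted p of 0.05 in limma, open points not past it, black bars the median. The medians are -1.17 for the Ifi200 members, -0.99 for the oligoadenylate synthetases, -0.49 for the GTPases and -0.29 for the Schlafen genes, and lie near 0 for the signalling, DNA-sensing and inflammasome lists.

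Members were also compared with each other across the arrays, as a description, since the 6 arrays share the group difference. Pearson's r of a member with the mean of the other 6 was 0.97 for Ifi214, 0.96 for Ifi213, 0.95 for Ifi205 and for Ifi207, 0.94 for Ifi203, 0.83 for Ifi209 and 0.40 for Aim2. After the group means were taken off, r was 0.91 for Ifi203, 0.86 for Ifi214, 0.68 for Ifi209 and 0.51 for Ifi213. It was 0.23 for Ifi205, 0.24 for Ifi207 and 0.10 for Aim2. Outside the family, the genes with the highest r to the mean of the members over 6 arrays were Mx1, Elavl3, Ankfy1, Psme2, Sp100 and Sox8, between 0.986 and 0.993. Mx1, an antiviral GTPase, changed by -0.92 ± 0.10 (limma, adjusted p = 0.0148), while Elavl3, Ankfy1 and Sox8 changed by only -0.08, -0.09 and -0.11, since r takes no account of size. With the group means taken off, the highest r was found for Dicer1, Ing4, Tmx3 and Wdr6, between 0.996 and 0.998, and none of these 4 passed the threshold between groups. Both sets top a ranking of all tested genes outside the family over 6 arrays, so nothing is read from their r.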

How the data were processed

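Total RNA from 6 bone marrow samples, 3 per group, was amplified, labelled and hybridised to Affymetrix arrays, 1 sample per array. The deposited values are log2 signals which, per the submitters' processing notes, the authors computed by RMA using Affymetrix Expression Console; they were used without further normalization. The number of arrays limits the precision. Groups came from the labels, and part of the genotype labels is not reported here.

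Of 35556 probe sets, 21789 carry 1 gene symbol and 1621 carry several; the latter were not named. The probe set with the highest mean over 6 arrays stood for a gene. Genes with a mean of at least 7.50 were fitted in limma 3.58.1 (R 4.3.3; lmFit, eBayes, group as the only term), with Benjamini-Hochberg adjustment over 12029 genes, a threshold of 0.05 and 95% intervals. The fit was tested on simulated data. Promoter windows and gene order came from RefSeq tables of GRCm38.p6 and were searched with Python 3.11.15.

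The members and the gene lists were chosen with earlier results of these data known. Named were the members, the other family genes, 5 neighbours on each side, the called genes of each pathway list or otherwise up to 4 with the largest change, up to 4 of each paralog family, up to 3 markers per cell type, and the genes most like the member mean (6 over the arrays, 4 within groups). Core pathway genes with small changes were named for their role, and Ikbke, Ifngr1 and Jak2 for their rise, after their values were seen. Alternatives were the level filter, quantile normalization, median centring, the mean of probe sets, trend and robust eBayes, array weights, all probe sets, a replicate block and leaving out each array.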

Additional observations from a re-analysis of the deposited data

How the results depend on the processing

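No member changed direction under the 15 alternatives, and the median of the members kept within the array spread in 14 of them. With a level filter at the 60th percentile, 4 members remained testable, 1 was called, and their median was -0.64. Array weights, whose estimation did not converge, called 6 members and 1878 genes. All probe sets without a filter, where many more features are adjusted over, gave 1 member and 1 probe set. Leaving out 1 array gave 1 to 6 members (without diabetic replicate 1 and without wild type replicate 3), a median of -1.23 to -1.01, and 3 to 70 genes against 52. The gene count was 13 without wild type replicate 2, and 5, 3 and 12 without diabetic replicates 1, 2 and 3. Ifi214 passed after quantile normalization, with an adjusted p of 0.0437 in limma. Medians near 0 changed sign when 1 array was left out. They ranged from -0.023 to 0.047 for DNA sensing (-0.011 without wild type replicate 1), from -0.070 to 0.034 for the inflammasome (-0.025 and -0.020 without diabetic replicates 1 and 3) and from -0.031 to 0.031 for interferon signalling (-0.017 without diabetic replicate 3). The correlations of deviations were 0.33, -0.04 and -0.05 for numbers 1, 2 and 3, and ran from -0.31 to 0.27 for unlike numbers. They do not settle whether the replicate numbers pair the samples. With the number as a replicate block, 1 member (Ifi205) and 2 genes passed. Causes of these shifts were not tested, and 3 arrays per group limit all calls.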

Other observations

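The ISRE core was also counted over all tested genes, as a description. Of 9655 tested genes with a promoter window, 343 held it, and 13 of these 343 were among the genes called lower in diabetic marrow, 3.79%, against 28 of all 9655, 0.290%. Without the Ifi200 family, 338 of 9648 genes held it, and 10 of these 338 were called lower, 2.96%, against 25 of 9648, 0.259%. The median log2 change was -0.016 for the 343 genes with the core and 0.0046 for the genes without it. Of the oligoadenylate synthetases 3 of 5 with a window held the core, and 1 of these 3 was among the 3 genes called. Their median change was -0.99 with the core and -1.14 without it. The core was in 3 of 8 Schlafen genes, 2 of which were called, and in 3 of 3 GTPase genes, 2 of which were called. It was in 3 of 18 interferon signalling genes, 1 of which was called, while 3 of the 18 were called in all. In the DNA-sensing and inflammasome lists, 0 of 22 and 0 of 14 genes held it. Whether these shares differ was not tested. A window covers 300 bases around 1 annotated start, so matches elsewhere are not counted.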
